A study of Homo sapiens with 29 samples.

Results

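Treatment for 7 days with the BRAF inhibitor LGX818 was compared with no drug in melanoma cells of the line WM239A that overexpress BRAF-V600E. The comparison rests on 6 of the 29 libraries of the series. They were chosen by their labels alone: 3 libraries of cells kept for 7 days in 500 nM LGX818, called 7-day cells here, and 3 of the same overexpressing cells without drug, called untreated. 2 further groups of 3 libraries each are used beside them. One is the overexpressing cells after 20 hours in 500 nM LGX818, and the other is WM239A cells with an empty vector and no drug. Polyadenylated RNA was sequenced and the deposited values are raw read counts per gene. Nothing in the labels states that the 3 libraries within a group are separate cultures; p-values therefore reflect library-to-library spread, which may be technical. The labels give no untreated cells taken 7 days later, so drug and time in culture cannot be told apart. The labels do not say whether the overexpressing line is a clone or a pool.

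LGX818, or encorafenib, blocks the kinase activity of BRAF carrying the V600E change. Mutant BRAF signals without growth factors through the kinases MEK and ERK. ERK switches on immediate early transcription factors, and with them its own inhibitors, among them dual-specificity phosphatases and Sprouty proteins. In melanoma cells the pathway also acts on the pigment cell program led by the factor MITF. Cells that survive BRAF inhibition are known to move between a pigmented state and a dedifferentiated, mesenchymal state with high receptor tyrosine kinase and matrix gene expression.

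The 7-day libraries held 26874857, 35804978 and 31434487 counts and the untreated libraries 24736045, 30713170 and 26310042. Mitochondrially encoded genes took 10.3% ± 0.859 of the counts in 7-day cells and 15.7% ± 0.714 in untreated cells (SD, n = 3 each), with no overlap (exact two-sided permutation test p = 0.1, the smallest that 3 against 3 libraries allow). In a principal component analysis of the 12 libraries of the 4 groups, the first component held 48% of the variance. It set the 7-day libraries, at 118.2 to 118.5, apart from the other 9, at -53.81 to -31.28. All 8 melanocytic markers were detected in both groups, with a sum of 827 to 894 CPM in 7-day and 2380 to 2490 CPM in untreated libraries. MLANA, PMEL, TYR, DCT and MITF were called lower in 7-day cells, and SOX10, S100B and S100A1 were not called. SOX10 had 405, 438 and 408 CPM in the 7-day libraries, against 468, 469.7 and 495 CPM in the untreated libraries. Of 10 fibroblast markers 7 were called higher in 7-day cells, among them COL1A1, COL3A1, COL1A2, PDGFRB, COL6A3 and PDGFRA, 1 (DCN) lower and 2 (FAP and THY1) were not called; their values stand with the collagens below. MS4A1, EPCAM and KRT5 had no count in either group. In whole-culture RNA, a change in the share of cells of one state cannot be told from a change in RNA per cell, and this holds for every gene below.

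Of 20494 genes tested with edgeR's quasi-likelihood test and Benjamini-Hochberg adjustment, 5635 (27.5%) were higher and 5463 (26.7%) lower in 7-day cells at an adjusted p under 0.05. At least 2-fold changes made up 2630 (12.8%) of the genes upward and 2310 (11.3%) downward, and at least 16-fold changes 565 (2.76%) and 295 (1.44%). The median log2 change of all genes was 0. Levels are in CPM, a gene's counts relative to the total of its library, with that total scaled by the trimmed mean of M values. They depend on transcript length and are compared here between groups, not between genes. The 27.5% and 26.7% of all genes that rose and fell are the background for every list below.

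BRAF itself, the drug's target and the introduced gene, had 803, 757 and 805 CPM in the 7-day libraries, against 903, 889 and 893 CPM in the untreated libraries, while the vector cells had 37.6, 39.7 and 43.2 CPM. The 7-day libraries lay below the untreated ones by a small margin, a log2 change of -0.18 (SE 0.08, adjusted p = 0.0434). That call was lost with DESeq2 (adjusted p = 0.0506), RLE factors (0.0557), mitochondrially encoded genes left out (0.0653) and no count filter (0.134), without 7-day replicate 2 (0.144) or 3 (0.0809) and without untreated replicate 1 (0.127), 2 (0.0902) or 3 (0.1). Over all alternatives its adjusted p ran from 0.00496 to 0.144. The transcript stayed far above the vector level under the drug, 19.6-fold higher in 7-day cells than in vector cells (adjusted p = 3.43e-26).

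The listed dual-specificity phosphatases and adaptors, called feedback genes here, moved in both directions. Whether each of them acts on ERK in these cells was not tested. SPRY4, a Sprouty protein that restrains receptor signalling, had 113, 112 and 105 CPM in the 7-day libraries, against 1358, 1289 and 1396 CPM in the untreated libraries. It was 12.2-fold lower (adjusted p = 5.19e-24). DUSP8, a phosphatase of the same family as DUSP6, had 24.8, 24.6 and 23.6 CPM in the 7-day libraries, against 0.200, 0.292 and 0.416 CPM in the untreated libraries and was 79.0-fold higher (adjusted p = 2.32e-22). The 2 genes moved to opposite sides with no overlap between groups. Of all genes tested, 31.7% had every 7-day library above and 31.4% every one below the untreated libraries. Of 20 feedback genes, all tested, 12 fell and 6 rose (median log2 change -0.86). Among the phosphatases DUSP4, an inhibitor of nuclear ERK, averaged 173 ± 11.9 against 1499.5 ± 50.4 CPM (SD, n = 3 each) in 7-day and untreated cells, and DUSP6, the cytoplasmic ERK phosphatase, 63.9 ± 2.74 against 421 ± 4.38 CPM. DUSP2 and DUSP5, at 0.348 against 2.62 CPM and 8.51 against 38.9 CPM, fell as well. DUSP7, DUSP14 and DUSP16 rose by 0.70 to 1.31 on the log2 scale. Among the adaptors SPRY1 fell most, to 3.61 CPM in 7-day cells, against 77.2 CPM in untreated cells. SPRY2, SPRED1, SPRED2 and IER3 fell by 0.84 to 1.64, whereas ERRFI1, an inhibitor of EGFR-family kinases, rose by 0.34. SPRY3 at 1.78 against 1.38 CPM and DUSP1 at 8.63 against 7.74 CPM were not called.

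The pathway's own components were called higher more often than lower. Of 19 RAS, RAF, MEK and ERK genes besides BRAF, 11 rose and 1, MAPK3, fell (median 0.35). MAP2K1 and MAP2K2, which encode the MEK kinases, rose by 0.30 and 0.67 on the log2 scale. The MAPK3 call, at a log2 change of -0.25 (adjusted p = 0.00805), was lost with no count filter (adjusted p = 0.0716) and without untreated replicate 2 (0.0586). RRAS, a RAS-related GTPase tied to integrin function, rose 9.56-fold, with 36.0, 37.7 and 31.7 CPM in the 7-day libraries, against 3.12, 3.53 and 4.35 CPM in the untreated libraries. MRAS and the scaffold KSR1 rose 4.76-fold and 4.51-fold. NRAS at 293 against 273 CPM was not called.

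Transcription factors below ERK moved in both directions within each family. EGR1, an immediate early zinc finger factor, had 9.10, 8.74 and 9.84 CPM in the 7-day libraries, against 429, 391 and 438 CPM in the untreated libraries. It was 45.5-fold lower (adjusted p = 1.41e-24), and EGR3 fell by 5.81 on the log2 scale, to 1.70 CPM, against 95.5 CPM untreated. JUN, the AP-1 partner that can act with FOS or alone, had 227, 227 and 219 CPM in the 7-day libraries, against 8.16, 8.75 and 10.1 CPM in the untreated libraries, 24.9-fold higher (adjusted p = 1.16e-24). FOS fell 9.12-fold, 5.38 against 49.2 CPM, while its relatives FOSL1 and FOSL2 rose 3.58-fold and 12.4-fold. So among 8 AP-1 genes JUN, JUND, FOSL1, FOSL2 and ATF3 rose, FOS and FOSB fell, and JUNB, at 30.2 against 38.2 CPM, was not called. The ETS factors split too. ETV1, ETV4 and ETV5, which follow ERK activity, fell by 1.29, 4.35 and 2.75. ETS1 and ETS2 rose by 1.51 and 3.92, and ETS2 reached 147 CPM in 7-day cells, against 9.74 CPM untreated. In all, 10 of 23 tested factors fell and 8 rose (median -0.08). EGR4, the remaining listed gene, did not pass the count filter.

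EGR1 is controlled by serum response factor, which binds the CArG box, and by ETS partners of it. The 250 bases before the start of EGR1 in RefSeq (GRCh38.p14, chr5:138465229-138465478, plus strand) are shown because this gene had one of the deepest falls among the factors. Capitals mark the CArG boxes found, CC and GG around 6 A or T, which read the same on both strands.
EGR1: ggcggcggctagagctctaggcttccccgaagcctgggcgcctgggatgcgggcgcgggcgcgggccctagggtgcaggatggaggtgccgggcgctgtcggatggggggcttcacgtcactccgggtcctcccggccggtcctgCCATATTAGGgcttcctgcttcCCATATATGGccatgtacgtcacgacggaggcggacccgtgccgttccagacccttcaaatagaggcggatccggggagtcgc
The window held 2 CArG boxes, starting 105 and 83 bases before the start site. Of the 17 factors with a promoter in the table, EGR1 was the only one with a CArG box, against 1.16% of all 35097 promoters of this length. A match describes the letters and does not show binding.

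**Figure D1:**
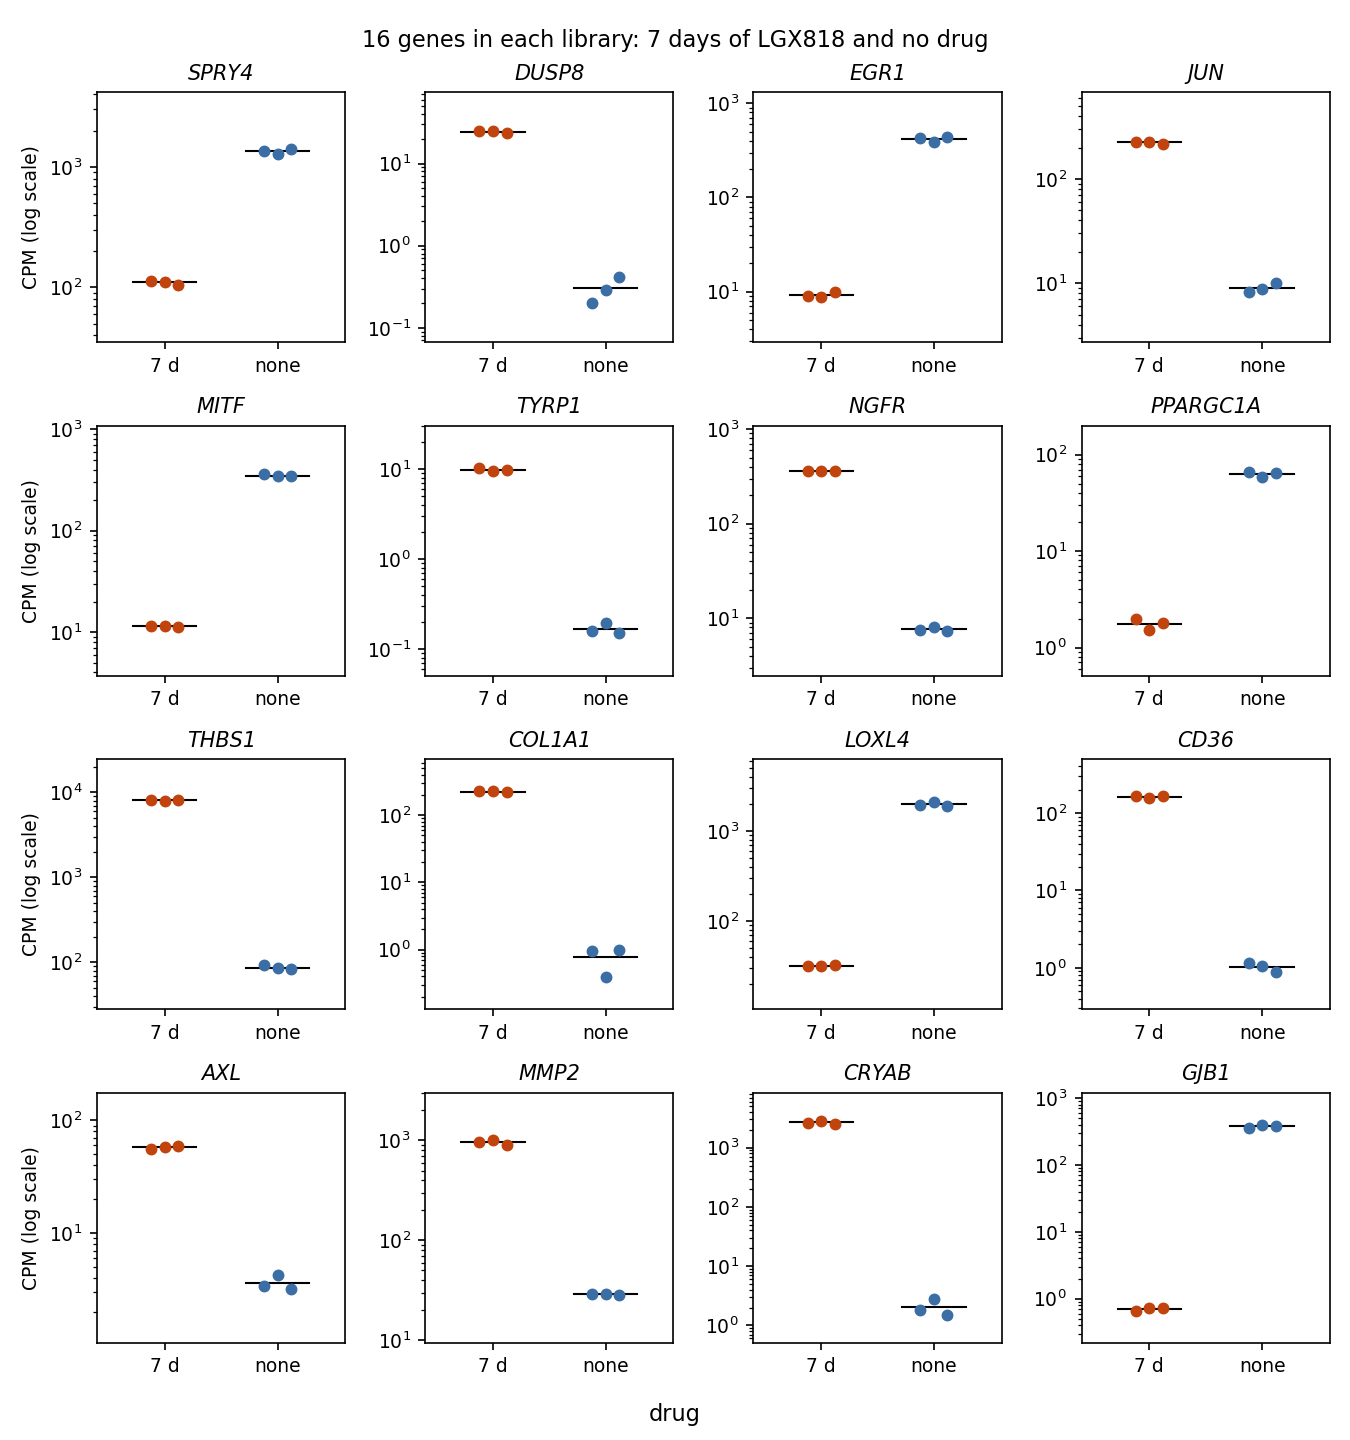
CPM on a log axis of 16 genes in each of the 3 libraries of 7-day cells (left) and untreated cells (right), where each point is a library and each line a group mean. The groups do not overlap for any gene drawn: EGR1 lies at 9.10, 8.74 and 9.84 CPM at 7 days and 429, 391 and 438 CPM without drug, and THBS1 the other way round at 8226, 7884 and 8108 and 92.3, 84.9 and 84.1 CPM. The genes drawn were chosen, and non-overlap is common: 31.7% of all genes tested lay fully above and 31.4% fully below untreated.

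The 7-day state was not the 20-hour state carried on. SPRY4 had 1348 CPM in untreated cells, 8.56 CPM at 20 hours and 110.2 CPM at 7 days. DUSP6 had 421 CPM in untreated cells, 11.0 CPM at 20 hours and 63.9 CPM at 7 days, and EGR1 had 419.6 CPM in untreated cells, 1.502 CPM at 20 hours and 9.23 CPM at 7 days. Each was lowest at 20 hours and in between at 7 days. Against the 20-hour libraries, 14 of 20 feedback genes were higher at 7 days and 4 lower, and 19 of 23 factors were higher and 2 lower. Of all genes 28.6% were higher and 29.1% lower in that comparison. FOSL1 and HBEGF, an EGFR ligand, crossed the untreated level. FOSL1 had 92.3 CPM in untreated cells, 8.27 CPM at 20 hours and 331 CPM at 7 days, and HBEGF had 11.8 CPM in untreated cells, 5.56 CPM at 20 hours and 52.0 CPM at 7 days. DUSP4 and SPRY1 differ from these. DUSP4 had 1499.5 CPM in untreated cells, 416 CPM at 20 hours and 173 CPM at 7 days, lowest at 7 days without overlap. SPRY1 averaged 77.2 CPM in untreated cells, 4.68 CPM at 20 hours and 3.61 CPM at 7 days. The SPRY1 libraries did not hold that order without overlap between groups. In 8 of the 20 feedback genes, the libraries of the 3 groups did not overlap and ran lowest at 20 hours, intermediate at 7 days and highest without drug, an order held by 6.3% of all genes tested.

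**Figure D2:**
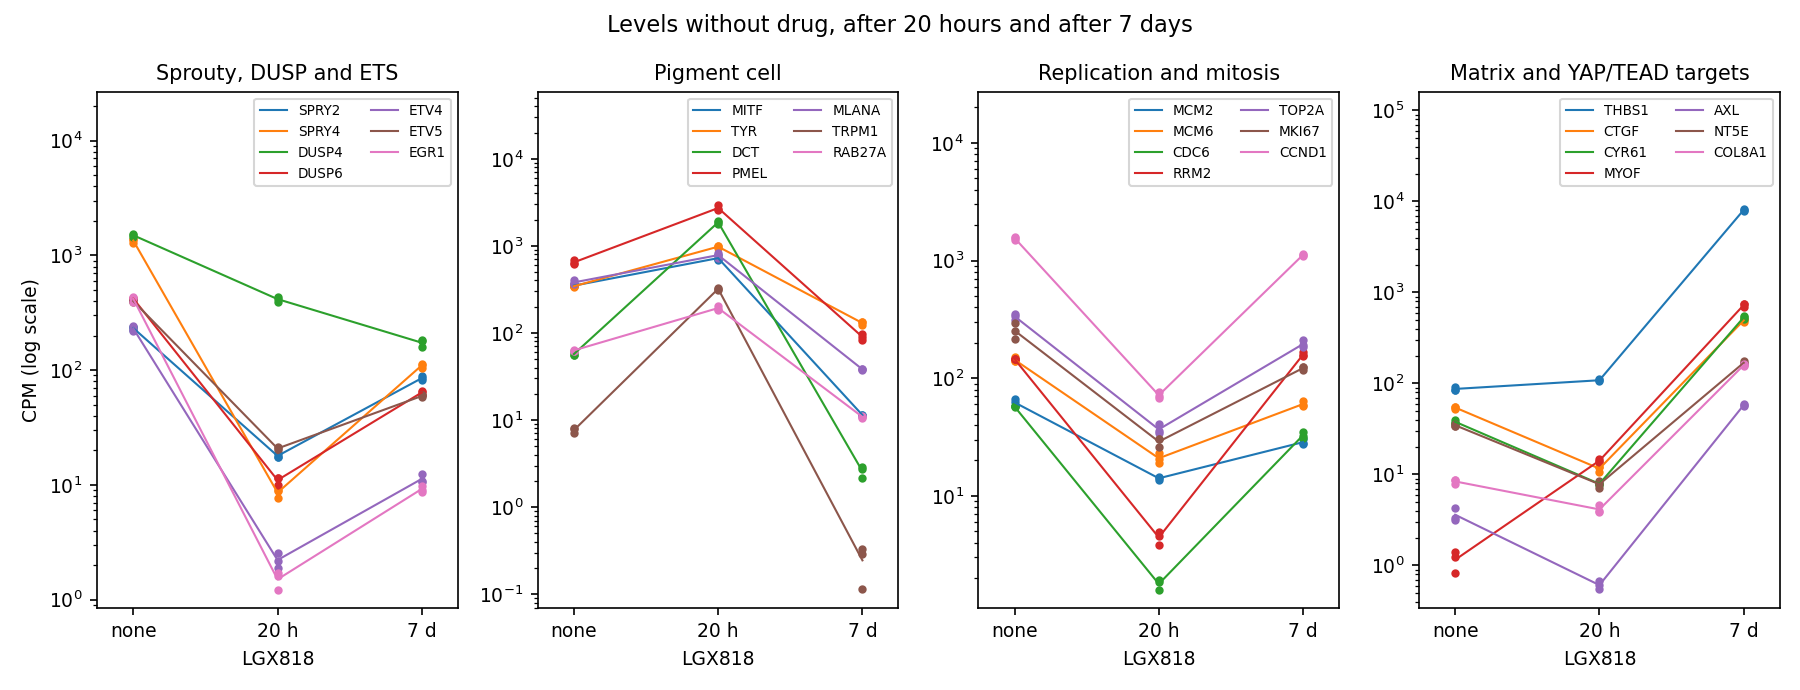
CPM on a log axis without drug, after 20 hours and after 7 days of LGX818 for 28 genes in 4 panels, with a point for each library and a line through the group means. The genes of the Sprouty, DUSP and ETS panel and of the replication and mitosis panel dip at 20 hours and are higher again at 7 days, except DUSP4, pigment genes peak at 20 hours and drop at 7 days, and matrix and YAP/TEAD target genes peak at 7 days.

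Most pigment cell genes fell against untreated cells, many of them after a higher level at 20 hours. MITF, the factor that directs melanocyte genes, had 11.6, 11.5 and 11.1 CPM in the 7-day libraries, against 361, 342 and 344 CPM in the untreated libraries, with 682, 779.7 and 707 CPM at 20 hours. DCT, a melanin synthesis enzyme, had 2.85, 2.74 and 2.14 CPM in the 7-day libraries, against 60.0, 55.0 and 56.4 CPM in the untreated libraries, with 1769, 1938 and 1883 CPM at 20 hours. TRPM1, an ion channel gene that MITF activates, had 7.64 CPM in untreated cells, 321 CPM at 20 hours and 0.244 CPM at 7 days. The 7-day libraries lay below both other groups for these genes. Of 27 pigment genes tested, 17 fell and 6 rose against untreated cells (median -1.41), and 23 fell and 3 rose against 20 hours (median -2.76). In 13 of the 27, every 20-hour library lay above and every 7-day library below the untreated ones, against 6.69% of all genes. The melanosome proteins PMEL and MLANA fell 7.19-fold and 9.97-fold against untreated cells, the transporters SLC45A2 and SLC24A5 9.38-fold and 9.89-fold. SLC24A5 and MC1R, the melanocortin receptor, had not been higher at 20 hours: their libraries lay below untreated at both times and lowest at 7 days, and those of LEF1 lay below at both times and lowest at 20 hours. Of the genes that move melanosomes, RAB27A and MREG fell by 2.54 and 3.21. CDK2, which lies beside PMEL and is a known MITF target, fell by 2.72.

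Members against the direction were few. TYRP1, another melanin synthesis enzyme, had 10.2, 9.58 and 9.74 CPM in the 7-day libraries, against 0.160, 0.195 and 0.151 CPM in the untreated libraries, a 56.4-fold rise (adjusted p = 7.46e-16), although it was higher still at 20 hours, at 16.6 CPM. TFAP2A, a factor shared by melanocytes and neural crest, rose 4.42-fold. PAX3, SLC7A5 and GPNMB also rose, by 0.32 to 1.07. SOX10, the lineage factor above MITF, was not called at -0.20, nor were EDNRB and TFAP2C. The sixth rise, GPR143, rested on 11 counts in 7-day libraries and 1 in untreated ones, a ratio of 9.94 (95% counting interval 1.45 to 428). Its call was lost without 7-day replicate 2 (adjusted p = 0.295) or untreated replicate 2 (0.118) or 3 (0.102).

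MITF binds E-box variants such as CATGTG. Promoters of TYRP1 (GRCh38.p14, chr9:12693135-12693384, plus strand) and TYR (chr11:89177625-89177874, plus strand) are shown because both hold this motif 2 times while the genes went opposite ways: TYR had 132, 135 and 123 CPM in the 7-day libraries, against 336, 353 and 342 CPM in the untreated libraries. Capitals mark CATGTG or its reverse complement CACATG.
TYRP1: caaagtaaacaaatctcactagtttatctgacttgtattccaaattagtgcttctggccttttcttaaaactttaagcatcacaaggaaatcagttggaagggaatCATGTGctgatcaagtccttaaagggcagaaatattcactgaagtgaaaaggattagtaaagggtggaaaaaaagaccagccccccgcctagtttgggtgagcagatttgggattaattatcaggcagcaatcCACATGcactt
TYR: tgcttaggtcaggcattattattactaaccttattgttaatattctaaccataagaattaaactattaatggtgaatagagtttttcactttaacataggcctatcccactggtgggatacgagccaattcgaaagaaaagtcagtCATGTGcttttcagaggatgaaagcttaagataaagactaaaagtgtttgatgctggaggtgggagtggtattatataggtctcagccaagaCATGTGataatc
The matches start 144 and 11 bases before the start of TYRP1, and 104 and 12 bases before that of TYR. The motif was found in 9 of the 21 pigment gene promoters in the table, 42.9%, and in 9.41% of all promoters. It stood in 4 of 13 promoters of genes that fell and in 3 of 6 of genes that rose.

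Among 14 genes of the neural crest, 9 rose and 3 fell (median 1.83, or 1.52 with TFAP2B, which had no untreated count, set at its bound). NGFR, a neurotrophin receptor and a marker of crest-like melanoma cells, had 360.1, 364 and 357 CPM in the 7-day libraries, against 7.44, 8.01 and 7.38 CPM in the untreated libraries, 47.3-fold higher (adjusted p = 4.36e-29). The adhesion molecule L1CAM rose 21.1-fold and the factor FOXD3, which maintains crest progenitors, 8.33-fold. RXRG, a retinoid receptor used as a marker of the same crest-like state, had 1.39, 1.85 and 2.14 CPM in the 7-day libraries, against 52.2, 52.8 and 47.3 CPM in the untreated libraries and fell 28.1-fold. SOX8 and SOX9 fell by 1.80 and 1.47. Markers of this state moved in both directions.

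Receptor tyrosine kinases and their ligands moved in both directions. AXL, the receptor for GAS6, had 56.3, 58.5 and 58.8 CPM in the 7-day libraries, against 3.36, 4.28 and 3.18 CPM in the untreated libraries, 15.9-fold higher (adjusted p = 3.18e-23), and FGFR3 had 27.2, 31.9 and 24.8 CPM in the 7-day libraries, against 0.760, 0.421 and 0.454 CPM in the untreated libraries, 51.8-fold higher (adjusted p = 1.27e-18). Going the other way, KDR, a VEGF receptor, had 0.231, 0.289 and 0.559 CPM in the 7-day libraries, against 10.3, 8.43 and 10.03 CPM in the untreated libraries, 26.1-fold lower (adjusted p = 1.96e-15). IGF1R and ERBB3 fell by 1.41 and 1.00, to 80.8 and 193 CPM in 7-day cells. Of 33 receptors tested of 35 listed, 18 rose and 10 fell (median 1.54, or 1.39 with ROR2 at its bound). ERBB2, INSR, EPHA2, DDR1 and DDR2 rose by 0.89 to 1.93. PDGFRB and EGFR, both associated with resistance to BRAF inhibitors, also rose but stayed low, at 3.43 against 0.292 CPM and 1.29 against 0.129 CPM. MERTK, a relative of AXL, fell by 2.07, and TYRO3, the third of that family, was not called at 72.3 against 66.9 CPM. KIT and FGFR2 did not pass the filter.

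Ligands were higher in 17 of 31 tested and lower in 7 (median 0.85, or 0.62 with genes at 0 set at their bounds). NRG1, a ligand of ERBB3 and ERBB4, had 44.9, 41.3 and 41.3 CPM in the 7-day libraries, against 0.400, 0.454 and 0.454 CPM in the untreated libraries, 96.1-fold higher (adjusted p = 3.41e-24). VEGFC, which acts on lymphatic vessels, had 27.1, 25.4 and 25.8 CPM in the 7-day libraries, against 0.0400, 0.130 and 0.151 CPM in the untreated libraries, 229-fold higher. PDGFB had 7.90, 7.16 and 7.11 CPM in the 7-day libraries, against 0.0800, 0.0324 and 0.0379 CPM in the untreated libraries. NRG3, by contrast, had 0.0385, 0.0866 and 0.197 CPM in the 7-day libraries, against 9.601, 8.01 and 8.63 CPM in the untreated libraries and fell 76.6-fold. Among neurotrophins, the ligands of NGFR and the NTRK receptors, BDNF rose 21.8-fold to 64.5 CPM in 7-day cells. NTF3 had 191 counts in the 7-day libraries and 2 in the untreated ones, a ratio of 86.3 (95% counting interval 23.6 to 718). NTRK2, the BDNF receptor, rose too, at 3.09 against 0.136 CPM. GAS6, the ligand of AXL, rose 3.60-fold. Counting intervals cover counting error alone.

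**Figure D3:**
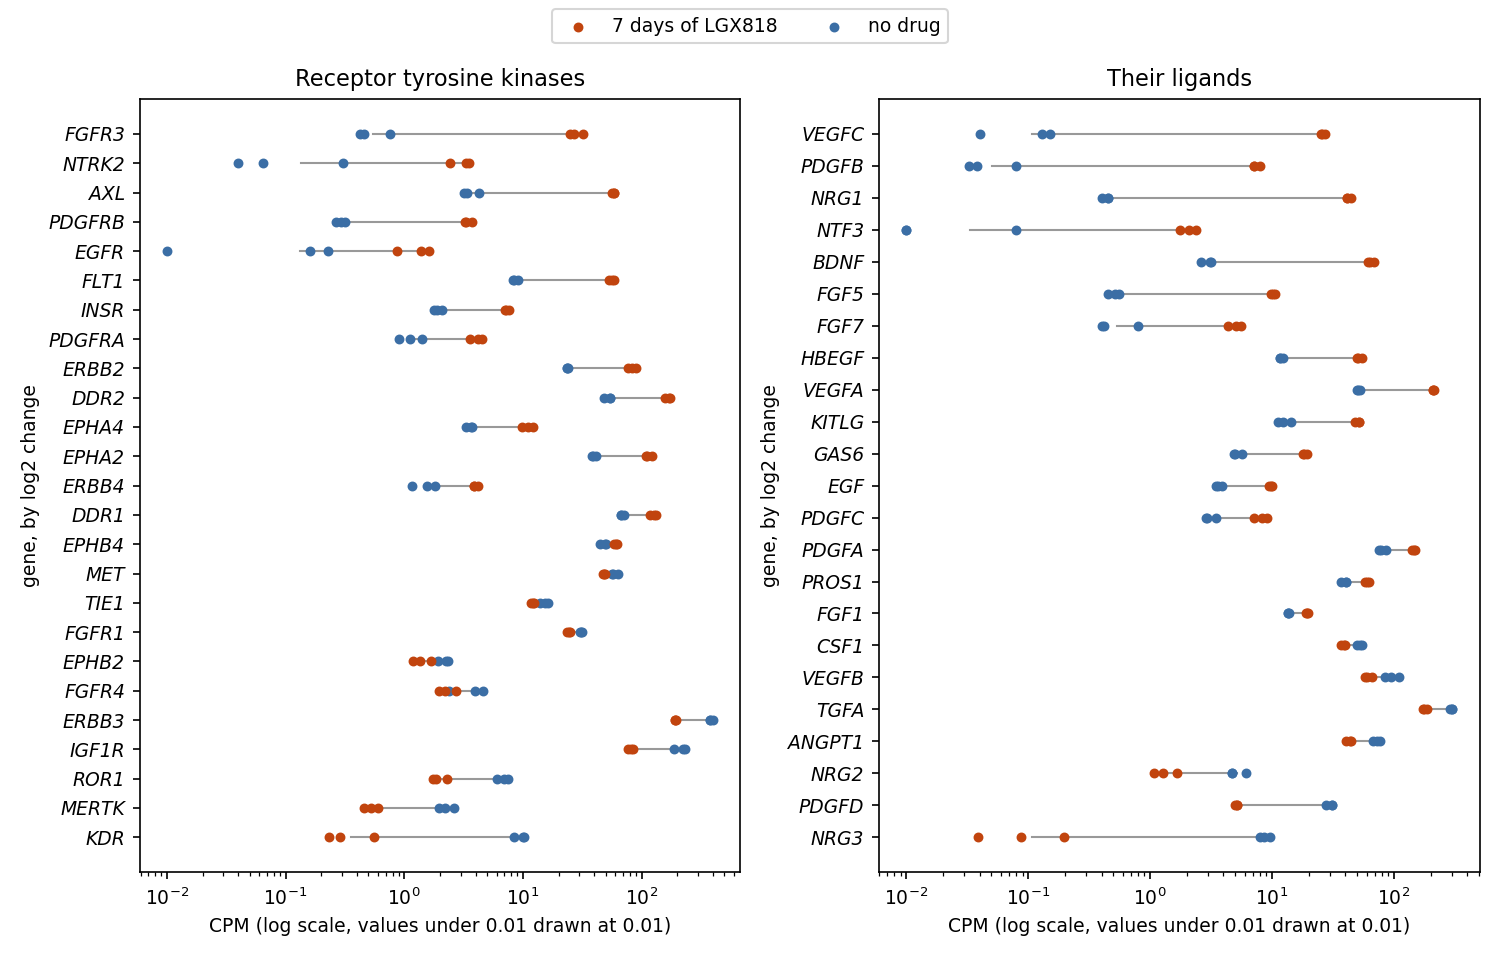
CPM on a log axis of 25 receptor tyrosine kinase genes and 23 ligand genes that were called and reached 1 CPM in the higher group, with 3 libraries each of 7-day cells (orange) and untreated cells (blue), ordered by log2 change, values under 0.01 CPM being drawn at 0.01. Gray lines join the group means; FGFR3 heads the receptors and KDR ends them, and among the ligands drawn VEGFC comes first and NRG3 last.

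Matrix genes gave the largest single gain in counts. FN1, fibronectin, had 54356, 52577 and 50285 CPM in the 7-day libraries, against 8184, 7191 and 7638 CPM in the untreated libraries, 6.83-fold higher (adjusted p = 1.82e-17). THBS1, thrombospondin 1, a matricellular protein that can activate latent TGF-beta, had 8226, 7884 and 8108 CPM in the 7-day libraries, against 92.3, 84.9 and 84.1 CPM in the untreated libraries, 92.7-fold higher (adjusted p = 8.12e-26). Of 32 matrix glycoproteins and fibre genes tested of 33 listed, 22 rose and 6 fell (median 1.05). FBN1, fibrillin 1, and BGN, biglycan, rose 65.1-fold and 48.6-fold. The lysyl oxidases, which cross-link collagen, divided: LOXL2 rose to 1114, 1170.0 and 1081 CPM in the 7-day libraries, against 156, 161 and 163 CPM untreated, and LOXL4 had 32.1, 31.4 and 32.6 CPM in the 7-day libraries, against 1935, 2099.9 and 1916 CPM in the untreated libraries. LOXL4 was 61.9-fold lower (adjusted p = 1.63e-28). TNC, tenascin C, and POSTN, periostin, fell by 1.26 and 2.89. LOX was not called at 0.136 against 0.0710 CPM.

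Collagen genes mostly rose, with chains of the same type on both sides. COL1A1, the main chain of type I collagen, had 227, 226 and 218 CPM in the 7-day libraries, against 0.960, 0.389 and 0.984 CPM in the untreated libraries, 294-fold higher (adjusted p = 2.1e-24). COL5A1, which nucleates type I fibrils, had 251, 245 and 253 CPM in the 7-day libraries, against 1.04, 0.843 and 1.02 CPM in the untreated libraries, 259-fold higher. COL3A1 averaged 10.3 against 0.0595 CPM and COL5A2 509.9 against 21.6 CPM. With COL1A2 and COL5A3, these made 6 of 10 fibrillar genes that rose, all of them chains of types I, III and V. Among the other fibrillar chains COL11A2 and COL27A1 fell by 0.83 and 0.50, and COL11A1 was not called. COL2A1, the cartilage collagen, had 1 count in the 7-day and 16 in the untreated libraries. Over all 28 collagens 18 rose and 7 fell (median 1.42, or 1.30 with COL4A6 at its bound). The basement membrane chains COL4A1 and COL4A2 rose 5.28-fold and 2.74-fold, whereas COL4A5 of the same type fell by 0.69 and COL4A4 was not called. COL4A3 averaged 1.26 against 2.09 CPM, a log2 change of -0.73 (adjusted p = 0.0191), and its call was lost without 7-day replicate 2 (adjusted p = 0.116) or untreated replicate 3 (0.173). The type IX chains COL9A1 and COL9A2 fell by 3.45 and 1.92, and COL9A3 rose by 0.48. The summed level of the 10 fibroblast markers, which include COL1A1, COL1A2, COL3A1 and COL6A3, was 325 to 332 CPM in 7-day and 57.9 to 59.3 CPM in untreated libraries. Of the 6 markers that are not collagens, PDGFRB averaged 3.43 against 0.292 CPM and rose by 3.53, and PDGFRA averaged 4.09 against 1.15 CPM and rose by 1.82. LUM averaged 1.35 against 0.713 CPM, a log2 change of 0.87 (adjusted p = 0.0378), a call lost without 7-day replicate 1 (adjusted p = 0.0577) or 3 (0.116) and without untreated replicate 1 (0.142) or 3 (0.15). FAP averaged 53.4 CPM in 7-day and 53.7 CPM in untreated cells and was not called. DCN had 1 count in the 7-day and 9 in the untreated libraries (adjusted p = 0.0385), a call lost without 7-day replicate 1 (0.0958) or 3 (0.115) and without untreated replicate 2 (0.0569) or 3 (0.272). THY1 had 0 and 4 counts and was not called. The part of fibroblast marker levels in the collagen changes was not tested.

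Integrins and laminins also moved in both directions. ITGA11, a collagen receptor subunit, had 52.6, 50.4 and 46.3 CPM in the 7-day libraries, against 0.640, 0.778 and 0.719 CPM in the untreated libraries, 69.0-fold higher (adjusted p = 3.7e-24). ITGB3, the beta subunit of a vitronectin receptor, had 92.3, 94.7 and 86.9 CPM in the 7-day libraries, against 654, 610.2 and 604 CPM in the untreated libraries, 6.82-fold lower (adjusted p = 2.55e-20). The other collagen receptor subunits ITGA1 and ITGA2 rose by 1.83 and 2.83, ITGA3 and ITGA5 by 2.49 and 1.01, and ITGA10 fell by 2.91. Their shared partner ITGB1 rose by 1.20. Of 36 adhesion genes tested, 18 rose and 9 fell (median 0.64, or 0.45 with ITGA8 at its bound). None of 7 cadherins fell and 5 rose, CDH6 with 37.7, 33.5 and 34.8 CPM in the 7-day libraries, against 0.120, 0.0648 and 0.0379 CPM in the untreated libraries. CDH2, N-cadherin, rose by 0.91, and CDH1, E-cadherin, did not pass the filter. Among laminins LAMA2 rose 5.02-fold and LAMA4 fell 4.53-fold.

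Proteases and their inhibitors rose in 13 of 25 and fell in 6 (median 0.90). MMP2, a gelatinase, had 969, 1003 and 901 CPM in the 7-day libraries, against 29, 29.3 and 28.2 CPM in the untreated libraries, 33.2-fold higher (adjusted p = 7.46e-29), and its membrane activator MMP14 rose 3.25-fold. MMP1, a collagenase, fell by 0.50, to 2554, 2489 and 2441 CPM in the 7-day libraries, against 3416, 3706 and 3434 CPM untreated, although it had been 492 CPM at 20 hours. SERPINB2, an inhibitor of plasminogen activators, had 235, 232 and 243 CPM in the 7-day libraries, against 4.16, 5.32 and 4.88 CPM in the untreated libraries and 0.586, 0.775 and 0.712 CPM at 20 hours, and rose 49.2-fold against untreated cells. SERPINA3 and SERPINF1, which codes for the anti-angiogenic protein PEDF, fell 79.2-fold and 53.8-fold.

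The targets of the YAP and TAZ coactivators rose while the coactivator genes fell. CTGF, a secreted matricellular protein, had 506, 495 and 479 CPM in the 7-day libraries, against 52.8, 55.1 and 55.3 CPM in the untreated libraries, 9.07-fold higher (adjusted p = 2.64e-24). CYR61, its relative, had 536, 509 and 550.1 CPM in the 7-day libraries, against 36.8, 40.1 and 36.9 CPM in the untreated libraries. At 20 hours both lay below untreated, at 11.6 and 7.89 CPM. Of 22 targets 18 rose, 3 were not called and RBMS3 fell (median 2.22). MYOF, a membrane repair protein, had 739.9, 699 and 744 CPM in the 7-day libraries, against 1.24, 1.39 and 0.833 CPM in the untreated libraries, 622-fold higher, and the angiomotin family gene AMOTL2 rose 13.4-fold. Against these, WWTR1, which encodes TAZ, had 115, 107 and 116 CPM in the 7-day libraries, against 567, 512 and 576 CPM in the untreated libraries, 4.90-fold lower (adjusted p = 1.11e-18), and YAP1 fell by 0.62. TEAD1, a DNA-binding partner of both, was not called at 207 against 199.7 CPM.

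TEAD factors bind CATTCC. The promoters of ANKRD1 and CTGF (GRCh38.p14, chr10:90921088-90921337, minus strand and chr6:131951373-131951622, minus strand) are shown because ANKRD1 had the largest change among targets holding the motif, 3.47, 3.29 and 3.32 CPM in the 7-day libraries, against 0, 0.0324 and 0.151 CPM in the untreated libraries, and CTGF is a widely used target gene. RefSeq lists CTGF as CCN2. Capitals mark CATTCC or its reverse complement GGAATG.
ANKRD1: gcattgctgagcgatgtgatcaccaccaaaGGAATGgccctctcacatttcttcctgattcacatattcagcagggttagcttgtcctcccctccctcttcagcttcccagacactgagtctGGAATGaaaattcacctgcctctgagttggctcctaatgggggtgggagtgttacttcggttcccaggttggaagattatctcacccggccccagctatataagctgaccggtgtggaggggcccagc
CTGF: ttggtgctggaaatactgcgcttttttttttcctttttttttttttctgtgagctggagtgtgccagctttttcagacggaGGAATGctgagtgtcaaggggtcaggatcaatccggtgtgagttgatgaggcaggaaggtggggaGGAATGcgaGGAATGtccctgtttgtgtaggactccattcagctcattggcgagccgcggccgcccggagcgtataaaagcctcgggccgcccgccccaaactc
ANKRD1 held 2 matches, starting 220 and 128 bases before the start, and CTGF 3, at 169, 104 and 95 bases. The motif stood in 6 of 16 target promoters in the table, 37.5%, and in 11.9% of all promoters. It was found in 5 of the 13 promoters of targets that rose.

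Contractile genes rose in 16 of 19 and fell in 1 (median 1.53). TPM1, tropomyosin, had 756, 762 and 801 CPM in the 7-day libraries, against 37.2, 41.2 and 38.2 CPM in the untreated libraries, 19.9-fold higher (adjusted p = 2.25e-28), and CALD1, caldesmon, rose 8.31-fold. FLNA, the actin cross-linker filamin A, and MYH9, nonmuscle myosin IIA, rose 5.07-fold and 4.81-fold. MYH10, nonmuscle myosin IIB, had 116, 114 and 121 CPM in the 7-day libraries, against 461, 434 and 433 CPM in the untreated libraries and was the one that fell. MYL9 had 150 counts in 7-day and 0 in untreated libraries and was at least 45.2-fold higher, by a floor of 3 counts over the untreated group. CNN1, calponin, was at least 15.1-fold higher by the same floor. The muscle cofactor MYOCD had no count in either group.

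TGF-beta and BMP genes rose in 22 of 37 and fell in 10 (median 0.77). INHBA, the activin A subunit, had 10.6, 8.80 and 10.4 CPM in the 7-day libraries, against 1.6, 1.59 and 1.85 CPM in the untreated libraries, 5.88-fold higher (adjusted p = 4.43e-11). TGFB2 rose 3.93-fold, whereas TGFB1 at 67.5 against 75.8 CPM was not called and TGFB3 fell 3.48-fold. The antagonists FST, follistatin, and GREM1, gremlin, rose as well: FST had 51.4, 54.7 and 50.02 CPM in the 7-day libraries, against 0.920, 0.778 and 0.606 CPM in the untreated libraries, and GREM1 was at least 49.1-fold higher, with 163 counts and none. SMAD6 and SMAD7, inhibitory SMADs, rose 8.98-fold and 3.47-fold and the BMP targets ID1 and ID3 4.55-fold and 3.33-fold. GDF11 and BMP7 fell by 2.16 and 2.58. The EMT factors of 8 tested rose in 3 and fell in 4. SNAI2, SLUG, had 383, 360.0 and 381 CPM in the 7-day libraries, against 31.6, 30.2 and 31.9 CPM in the untreated libraries, and ZEB2 rose by 1.44. ZEB1, TWIST1 and SNAI1 fell by 1.56, 1.33 and 1.24, and each was lower still at 20 hours.

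Cytokine genes rose in 11 of 24 tested and fell in 8 (median 0.19). IL11, a cytokine of the IL6 family, had 15.0, 13.4 and 12.7 CPM in the 7-day libraries, against 0.680, 0.713 and 0.568 CPM in the untreated libraries, 20.7-fold higher (adjusted p = 2.74e-18). LIF, of the same family, had 35.3, 36.2 and 36.3 CPM in the 7-day libraries, against 138, 133 and 136 CPM in the untreated libraries, 3.78-fold lower (adjusted p = 3.53e-20), though above its 20-hour level of 2.73 CPM. CXCL8, a neutrophil attractant, had 9.604 CPM in untreated cells, 0.180 CPM at 20 hours and 43.2 CPM at 7 days. CCL2, which attracts monocytes, averaged 13.1 against 0.276 CPM. IL32 had 442 counts in 7-day and 1 in untreated libraries, a ratio of 400 (95% counting interval 71.3 to 15800). IL6 had 204 and 3, a ratio of 61.5 (20.7 to 301). NF-kappa-B genes rose in 7 of 13 and fell in 3 (median 0.44), BIRC3 5.64-fold up and NFKB1 1.62-fold down. Interferon-stimulated genes were even: 5 rose and 5 fell of 20 (median 0.01). IRF1, an interferon regulatory factor, rose 5.68-fold, and IFIT3, an antiviral protein gene, fell 3.90-fold.

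Against untreated cells, antigen presentation went by class. Of 14 class I pathway genes 8 rose and none fell, with PSMB9 and PSMB10, subunits of the immunoproteasome, 5.50-fold and 4.01-fold higher and the peptide transporter gene TAP1 2.20-fold higher. B2M, the light chain of class I, was not called at 632 against 620.1 CPM. HLA genes share sequence, so reads may be split among them. All 7 class II genes tested fell: CD74, the invariant chain, had 6.09, 5.97 and 5.76 CPM in the 7-day libraries, against 41.5, 47.1 and 44.1 CPM in the untreated libraries, 7.45-fold lower (adjusted p = 3.7e-17). CIITA, their master regulator, averaged 1.49 against 2.47 CPM. Among immune ligands PDCD1LG2, which encodes PD-L2, had 284 and 1 counts, a ratio of 257 (45.7 to 10200). CD274, which encodes PD-L1, had 0.385, 0.289 and 0.329 CPM in the 7-day libraries, against 1.32, 1.17 and 1.10 CPM in the untreated libraries and fell 3.57-fold. The NKG2D ligands MICA, MICB and ULBP2 rose by 0.43 to 1.88.

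Replication and mitosis genes sat below untreated cells and far above 20 hours. MKI67, the proliferation antigen, had 124, 117 and 126 CPM in the 7-day libraries, against 295, 217 and 250.3 CPM in the untreated libraries and 25.9, 30.4 and 30.4 CPM at 20 hours. MCM6, of the replicative helicase, had 58.1, 63.6 and 59.2 CPM in the 7-day libraries, against 139, 152 and 140.0 CPM in the untreated libraries and 19.2, 23.0 and 20.4 CPM at 20 hours. Of 20 replication genes 18 fell against untreated cells and none rose (median -0.82), and all 20 were higher than at 20 hours (median 2.06). Of 20 mitosis genes 19 fell (median -0.62), and all 20 were higher than at 20 hours (median 2.39). Highest without drug, intermediate at 7 days and lowest at 20 hours, with no overlap, was the order of 18 of 20 replication and 19 of 20 mitosis genes, against 6.3% of all genes. PCNA at 154 against 159 CPM, RRM2 at 159 against 145 CPM and CDC20 at 81.9 against 88.0 CPM were not called against untreated cells. Single falls were modest, up to 1.45 for CENPE, a spindle motor.

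Among cyclins, kinases and inhibitors 15 of 23 fell and 4 rose (median -0.50). CCND1, cyclin D1, had 1553 CPM in untreated cells, 71.7 CPM at 20 hours and 1118 CPM at 7 days and fell by 0.47 against untreated cells. CCND2, cyclin D2, had 2.47, 2.48 and 2.60 CPM in the 7-day libraries, against 0.0400, 0 and 0.114 CPM in the untreated libraries, 47.5-fold higher (adjusted p = 6.65e-13). CDKN1A, the p21 inhibitor, rose 2.35-fold and CDKN1B, p27, 1.29-fold, while CDKN1C, p57, fell 3.15-fold. CDK4 was not called at 146 against 154 CPM. Among BCL2 family genes 4 of 15 fell and 2 rose. BCL2A1, an anti-apoptotic MITF target, had 8.94, 10.01 and 11.2 CPM in the 7-day libraries, against 111, 128 and 119 CPM in the untreated libraries, 11.8-fold lower (adjusted p = 6.07e-20). BMF, a pro-apoptotic member, had 59.7, 59.9 and 56.4 CPM in the 7-day libraries, against 14.9, 13.6 and 14.2 CPM in the untreated libraries, 4.13-fold higher, though 185 CPM at 20 hours. BCL2L11, which encodes BIM, had 15.2 CPM in untreated cells, 55.7 CPM at 20 hours and 17.6 CPM at 7 days and was not called against untreated cells. Of 15 p53 genes and targets 9 rose and 1 fell, SESN2 and GADD45B by 2.57 and 2.54, with MDM2 not called at -0.07.

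Mitochondrial regulators fell in 9 of 12 and rose in 1 (median -0.37). PPARGC1A, the coactivator PGC1-alpha and an MITF target, had 1.97, 1.53 and 1.78 CPM in the 7-day libraries, against 66.6, 58.3 and 64.9 CPM in the untreated libraries and 174, 192 and 191 CPM at 20 hours, 36.2-fold below untreated (adjusted p = 1.51e-19). TFAM, which packages mitochondrial DNA, fell by 0.93. Mitochondrially encoded genes fell in 11 of 13 and rose in none (median -0.70), led by MT-CYB, the cytochrome b gene, with 5387, 4956 and 6019.5 CPM in the 7-day libraries, against 13207, 12161 and 12612 CPM in the untreated libraries. They also made up 7 of the 8 largest losses in CPM, MT-RNR2 among them. The remaining loss was ALDH1A3, a retinaldehyde dehydrogenase, with 259, 265 and 271 CPM in the 7-day libraries, against 3461, 3569.8 and 3517 CPM in the untreated libraries, 13.3-fold lower. Nuclear copies of mitochondrial sequence can share reads with these genes.

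Sterol and lipid genes fell in 29 of 34 tested and rose in 2 (median -1.11). SCD, the stearoyl-CoA desaturase, had 83.7, 83.6 and 78.9 CPM in the 7-day libraries, against 384, 381 and 388 CPM in the untreated libraries, 4.68-fold lower (adjusted p = 2.16e-20). DHCR7 and FDFT1 of cholesterol synthesis fell by 1.78 and 1.66, FASN by 1.64, and their regulators SREBF1 and SREBF2 by 1.51 and 1.24. In 13 of the 34 genes levels fell from untreated through 20 hours to 7 days without overlap, against 4.66% of all genes. The 2 that rose were fatty acid handlers: CD36, a fatty acid uptake receptor, had 166, 158 and 166 CPM in the 7-day libraries, against 1.16, 1.07 and 0.871 CPM in the untreated libraries, 157-fold higher (adjusted p = 3.41e-24), and FABP3 rose 9.95-fold. Its relative FABP7, the brain fatty acid binding protein, had 4.47, 4.79 and 5.03 CPM in the 7-day libraries, against 642, 708 and 687 CPM in the untreated libraries, 142-fold lower (adjusted p = 3.1e-26).

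ATF4 targets rose in 22 of 25 tested and fell in 1, VLDLR (median 1.23). ASNS, asparagine synthetase, had 395, 416 and 397 CPM in the 7-day libraries, against 60.9, 72.7 and 65.9 CPM in the untreated libraries, 6.05-fold higher (adjusted p = 9.1e-21). SLC7A11, the cystine importer, had 589.6, 523 and 559 CPM in the 7-day libraries, against 67.1, 50.8 and 67.5 CPM in the untreated libraries, 9.02-fold higher. PHGDH and PSAT1 of serine synthesis rose 3.17-fold and 2.78-fold, and ATF4 itself by 0.51 on the log2 scale. In 10 of the 25 genes every 20-hour library lay below and every 7-day library above the untreated ones, against 5.38% of all genes.

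The motif TTGCATC is a form of the element that ATF4 and C/EBP factors bind. CHAC1, a glutathione-degrading enzyme with 30.2, 32.1 and 28.2 CPM in the 7-day libraries, against 4.0, 3.44 and 3.29 CPM in the untreated libraries, was the one target with it, and its promoter (GRCh38.p14, chr15:40953221-40953470, plus strand) is shown with the match in capitals, 209 bases before the start.
CHAC1: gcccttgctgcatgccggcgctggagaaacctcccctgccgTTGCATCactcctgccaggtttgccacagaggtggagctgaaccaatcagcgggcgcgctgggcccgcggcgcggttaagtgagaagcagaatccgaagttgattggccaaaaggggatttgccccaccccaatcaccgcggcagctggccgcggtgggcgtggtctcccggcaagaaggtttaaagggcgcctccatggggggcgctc
Of 23 ATF4 target promoters 1 held TTGCATC on either strand, 4.3%, against 2.05% of all promoters. The AP-1 motif TGANTCA stood in 1 of 8 metalloproteinase and TIMP promoters, that of MMP10, which was not called, and in 6.57% of all promoters.

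Heat shock genes rose in 6 of 11 tested and fell in 3 (median 0.43), and the small ones led. CRYAB, the alpha-B crystallin chaperone, had 2634, 2836 and 2549 CPM in the 7-day libraries, against 1.80, 2.79 and 1.51 CPM in the untreated libraries, 1291-fold higher (adjusted p = 2.93e-28). HSPB8 rose 2.997-fold, and its partner BAG3 fell 2.09-fold. HSPA1A and HSPA1B, near-identical copies that can share reads, rose by 1.37 and 1.34. The HSP70 and HSP90 genes HSPA8 and HSP90AA1 fell by 0.38 and 0.26.

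**Figure D4:**
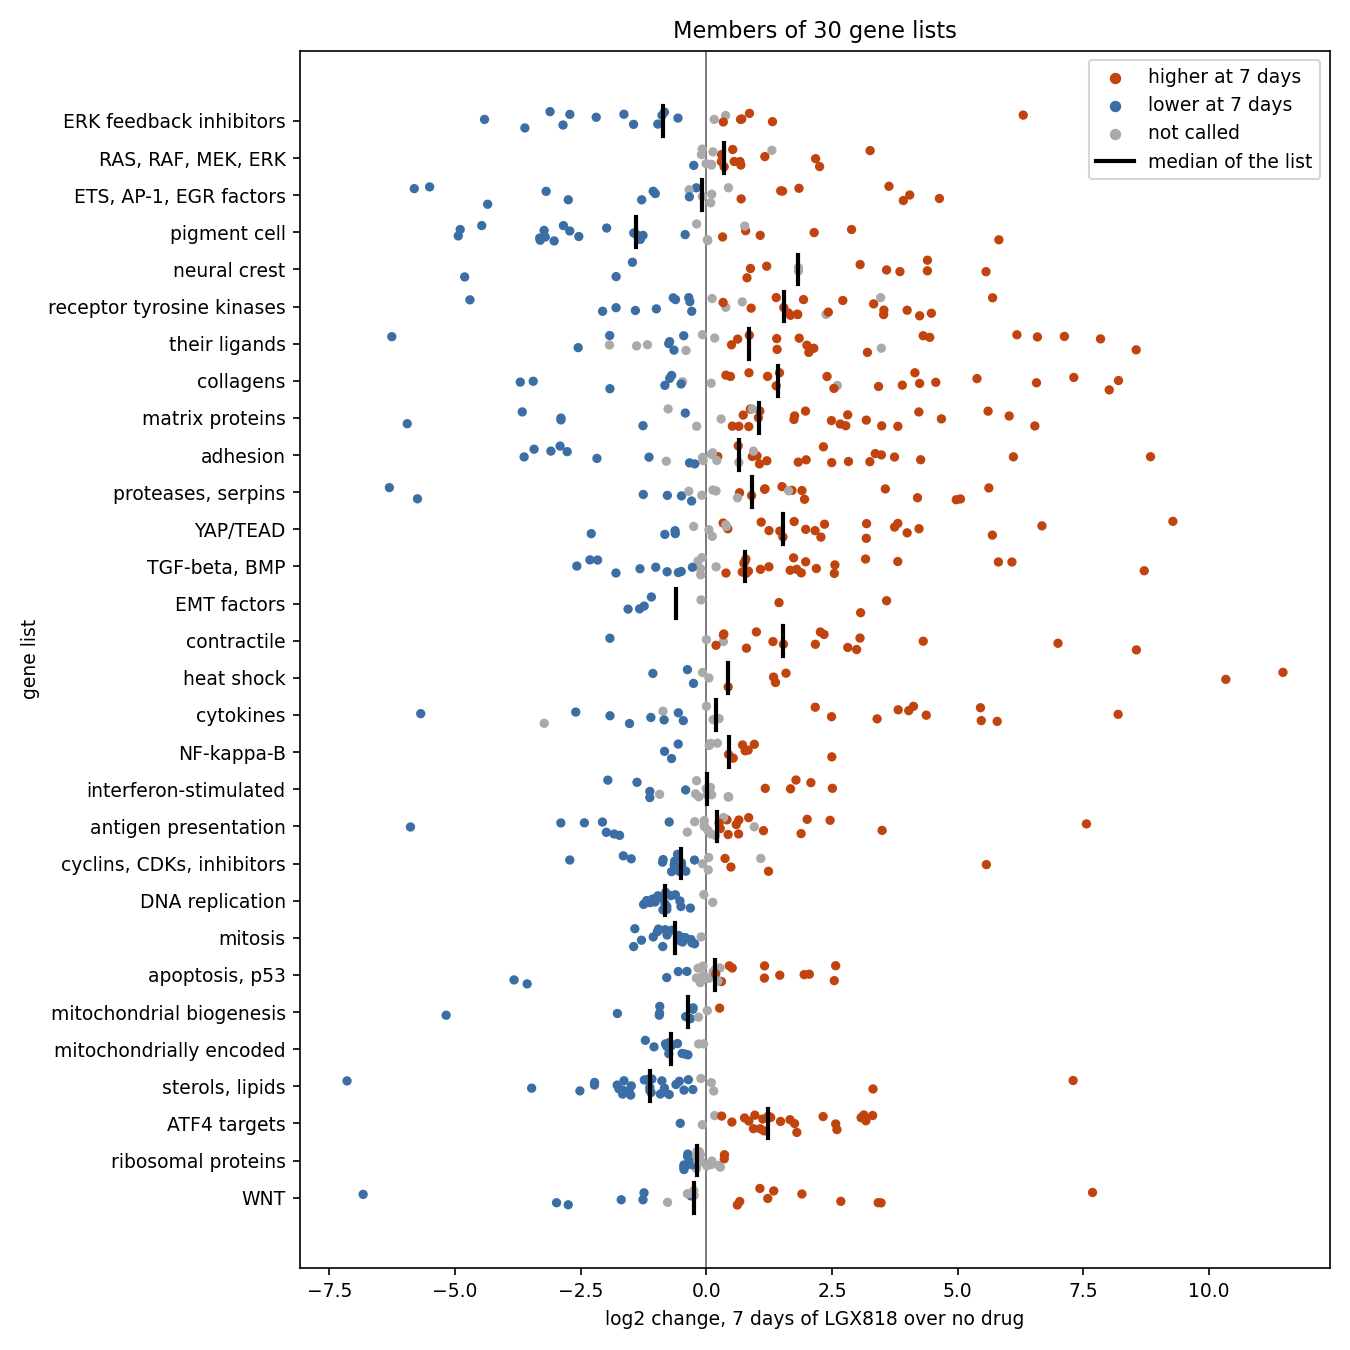
Log2 change at 7 days over no drug for each tested member of 30 gene lists, with genes called higher in orange, called lower in blue and not called in gray, and the list median as a black bar. ATF4 targets (median 1.23) and contractile genes (1.53) lie mostly right of 0, pigment cell (-1.41), sterol and lipid (-1.11) and replication genes (-0.82) mostly left; values of genes with few counts depend on the fit's prior count.

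Single genes with the largest changes were also taken by size, among called genes without overlap, leaving out clones, LINC and antisense genes and pseudogenes. Some of them are members of the lists above, which were chosen with earlier results of these data known. Besides FN1, THBS1, FLNA and CRYAB, the largest gains in CPM were FTL and FTH1, PRNP and ANXA2. FTL, the ferritin light chain, had 14202, 15926 and 14306 CPM in the 7-day libraries, against 1913, 2298 and 2126 CPM in the untreated libraries, 7.01-fold higher, and FTH1, the heavy chain, 5.81-fold. Both have many processed copies in the genome with which reads can be shared. PRNP, the prion protein, and ANXA2, annexin A2, rose 7.08-fold and 9.42-fold. Among genes with a mean of 5 CPM or more over the 6 libraries and at least 10 counts in each group, the largest log2 rises were CRYAB, MYOF, OLFML2A, MARCH4, COL1A1 and CALB2. OLFML2A, an extracellular matrix protein, had 1266, 1306 and 1154 CPM in the 7-day libraries, against 1.84, 2.40 and 2.35 CPM in the untreated libraries. MARCH4, a ubiquitin ligase, had 91.2, 91.2 and 89.0 CPM in the 7-day libraries, against 0.120, 0.259 and 0.265 CPM in the untreated libraries, and CALB2, calretinin, rose 293-fold. Under the same limits, which leave out genes nearly absent from a group such as SLC5A4 and NPPB, the largest falls were GJB1, PLA1A, FABP7, APOC1, GPRC5B and NPR1. GJB1, connexin 32, had 0.655, 0.721 and 0.724 CPM in the 7-day libraries, against 357, 401 and 385 CPM in the untreated libraries, 539-fold lower (adjusted p = 7.07e-29). PLA1A, a phosphatidylserine phospholipase, fell 280.1-fold, APOC1, an apolipoprotein, 126-fold, and NPR1, a natriuretic peptide receptor, 84.7-fold. Against 20 hours, under the same limits, the largest rises included MARCH4, SERPINB2, LRRC15, CRYAB and CALB2, and the largest falls TRPM1, DCT, KCNJ13, GALNT3, NAT16 and PLA1A. LRRC15, a TGF-beta-inducible membrane protein, had 0.494 CPM in untreated cells, 0.318 CPM at 20 hours and 104 CPM at 7 days, and GALNT3, an O-glycosylation enzyme, had 20.6 CPM in untreated cells, 149 CPM at 20 hours and 0.767 CPM at 7 days.

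Against vector cells without drug, which share the 7-day libraries with the comparison above, 5071 genes (24.7%) were higher and 5202 (25.4%) lower in 7-day cells. THBS1 was 35.5-fold and AXL 8.55-fold higher than in vector cells, MITF 30.4-fold and DUSP6 4.42-fold lower. MYOF and OLFML2A averaged 14.7 and 21.7 CPM in vector cells. Their rises were 49.5-fold and 57.3-fold against vector cells, and 622-fold and 562-fold against untreated cells. Of 22 YAP/TEAD targets 18 were higher and 1 lower, and of 20 replication genes none was higher and 18 lower. Other lists depended more on the control. Of 20 feedback genes 8 were higher and 10 lower than in vector cells (median -0.141, against -0.86 relative to untreated cells). Of 13 mitochondrially encoded genes 8 were lower (median -0.345, against -0.696). Of 24 ribosomal protein genes 3 were higher and none lower, against 2 and 8. The 7 class II genes were all lower, with a median of -4.94, against -2.07 relative to untreated cells. Of 14 class I pathway genes 6 were higher and 3 lower than in vector cells, against 8 and 0 relative to untreated cells. Of 11 immune ligand genes tested 5 were higher and 0 lower, against 6 and 1. CD274, the 1 that fell against untreated cells, was thus not called lower than in vector cells. DUSP5 went the other way, at 8.51 CPM in 7-day and 6.04 CPM in vector cells, 1.41-fold higher (adjusted p = 0.000446). TYRP1 stood 4.77-fold above vector cells.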

How the data were processed

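The 29 libraries of polyadenylated RNA form 10 groups, taken from the labels. Per the submitters' processing notes, the authors used Trimmomatic 0.32, HISAT2 2.0.3, SAMtools 0.1.18, HTSeq 0.6.1 and the GRCh38 genome. They deposited whole-number read counts for 60675 genes; the annotation release and strand setting are not given in the sources used here, so counts of overlapping and antisense genes are uncertain. The intermittent week 3 columns, named off drug in the table and on drug in the labels, were matched by week, schedule and replicate and enter the fit only through the shared spread.

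Testing used edgeR 4.0.16 (R 4.3.3) with filterByExpr and TMM factors, 1 quasi-likelihood model over the 29 libraries, 1 coefficient per group, and Benjamini-Hochberg adjustment over all 20494 tested genes at 0.05. The common biological coefficient of variation was 0.0942. The standard error of a log2 change was its size divided by the square root of the F statistic. The script was tested on simulated data with known changes in the 7-day group. It recovered 28 of 67 changes of 1.5-fold, 50 of 67 of 2-fold and 54 of 66 of 4-fold. Of 143 calls 11 were false, 7.69%, which is above the threshold of 0.05, and 0 had the wrong direction. The other genes of the 19246 tested there were simulated equal in all groups, whereas 27.5% rose and 26.7% fell in the data. The recovery and false-call shares therefore need not hold for the data. Equal replicate numbers showed no strong pairing of the libraries: the correlations of their deviations were 0.026, 0.055 and 0.017. Unequal numbers gave -0.053 to 0.023. Weak pairing cannot be told from none by these values. No pair of replicates in the 4 groups was close enough to be 1 library, with a chi-square per gene of 3.27 to 13.05.

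Members and gene lists were chosen with earlier results of these data known, so their counts are no independent evidence. Genes were named by rule: BRAF, DUSP6, SPRY4, EGR1 and MITF; the 8 largest called gains and losses in CPM without overlap; the 6 largest log2 rises and falls at a mean of 5 CPM or more and at least 10 counts in each group, without overlap, against untreated cells and against 20 hours; and called members of each list. Other members are given by value. Clones, LINC and antisense genes and pseudogenes were left out of the naming. Folds against a group at 0 use a floor of 3 counts over the group, and genes with 1 to 3 counts have an exact 95% counting interval. Types were matched to GENCODE 29 for 20326 genes. Promoters are from RefSeq (GRCh38.p14), matched by Ensembl identifier through current symbols. The alternatives left out each library or the low-count filter, fitted the compared groups alone, added a replicate term, or used RLE factors or DESeq2 1.42.0. Leaving out mitochondrially encoded genes was added after seeing the data. The listed NECTIN2 was not matched by that symbol. A few genes meeting this rule, or belonging to the lists, are not reported here.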

Additional observations from a re-analysis of the deposited data

How the results depend on the processing

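The counts of called genes in all 3 comparisons stayed within 1.5 times of the reported ones under every alternative run. Against untreated cells they ran from 5098 to 5779 higher and from 4901 to 5644 lower, over DESeq2, RLE factors, no count filter, the compared groups alone, mitochondrially encoded genes left out, the replicate term and each library left out. At least 2-fold changes were fewest with the compared groups alone, 2126 higher and 1964 lower. With the replicate block the counts were 5607 higher and 5448 lower. Replicate numbers showed no strong pairing, and the block changed no list count by over 1.5 times. Of the 30 lists, the count in the main direction moved by more than that in 1, the ribosomal proteins that fell: 8 as reported, 13 with the compared groups alone, and 5 to 8 over the libraries left out, with 5 without untreated replicate 2. Mitochondrial regulators that fell stayed within 1.5 times but moved too: 9 as reported and 6 to 9 over the libraries left out. The other alternatives gave 7 to 9. Of 578 gene results called, 45 lost the call under at least 1 alternative, and none called changed sign. Genes with few counts are limited by depth, and groups of 3 are too small for a test of single outlying libraries.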

Other observations

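A small set of genes was nearly absent from one of the 2 groups. With at least 5 CPM in 7-day cells and at most 3 counts over the untreated libraries stood 10 genes, 9 of them protein-coding, among them DLX3, EFS, NPPB, APLNR, CREB3L1, SHANK2, HSPB3 and GPR1. NPPB, which encodes the natriuretic peptide BNP, had 1253 counts in 7-day and 3 in untreated libraries, a ratio of 378 (95% counting interval 129 to 1830). CREB3L1, a membrane-bound factor that drives collagen genes, had 500 and 2 counts, a ratio of 226 (62.2 to 1870). DLX3, a homeobox factor of skin and bone, had 653 and 2, a ratio of 295 (81.4 to 2440), and already averaged 1.48 CPM at 20 hours. The adaptor EFS had 563 and 2 counts, and GPR1 had 616 and 1. In the opposite direction 8 genes met the same limits, 4 of them protein-coding, SLC5A4, HTN1, LAD1 and MUC7. HTN1, a salivary histatin, had no count in 7-day and 643 in untreated libraries and was at least 237-fold lower. It averaged 7.79 CPM in untreated overexpressing cells and 1.02 CPM in vector cells. MUC7, a salivary mucin that neighbours the histatins, had 1 and 1455 counts. NPR1, a receptor for natriuretic peptides, was among the largest falls while NPPB rose, with 0.308, 0.404 and 0.165 CPM in the 7-day libraries, against 24.4, 27.9 and 24.0 CPM in the untreated libraries. In vector cells NPR1 averaged 0.889 CPM.

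WNT pathway genes went both ways, 10 of 22 rising and 7 falling (median -0.25). DKK1, a secreted WNT antagonist, had 17.5, 18.4 and 19.2 CPM in the 7-day libraries, against 0.0400, 0.0648 and 0.151 CPM in the untreated libraries, 205-fold higher (adjusted p = 1.37e-23). RNF43, a membrane ligase that removes frizzled receptors, had 0, 0.0866 and 0.0658 CPM in the 7-day libraries, against 6.92, 6.55 and 6.70 CPM in the untreated libraries, 114-fold lower (adjusted p = 1.03e-16). FZD7 and SFRP1 fell 7.90-fold and 6.72-fold, and FZD2 rose 6.38-fold. WNT5A, a ligand linked to melanoma invasion, had 26.0 CPM in untreated cells, 2.31 CPM at 20 hours and 41.2 CPM at 7 days. Ribosomal protein genes changed little: 8 of 24 fell and 2 rose (median -0.19), and none changed 2-fold; 13 fell with the compared groups fitted alone and 5 without untreated replicate 2. By type, 32.2% of 14688 protein-coding genes rose and 29.8% fell, while of 1063 processed pseudogenes 8.47% rose and 17.4% fell. The 50 largest gains held 48.4% of all CPM gained and the 50 largest losses 38.7% of all CPM lost.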
